A study of Mus musculus with 32 samples.

Results

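The cytosolic ribosome of mouse cells is built from ribosomal RNA and a fixed set of proteins, nearly all of them present in a single copy. The genes were chosen by name alone: symbols made of Rpl or Rps with digits and optional letters, together with Rpsa, Rplp0, Rplp1 and Rplp2, but without pseudogene names ending in -ps and without the S6 kinases. The rule took 81 of the 20560 genes in the table, 32 of the small subunit (Rps) and 49 of the large subunit (Rpl). Of these, 79 are protein-coding in GENCODE M21, while Rpl6l and Rpl37rt are annotated there as processed pseudogenes. The name rule leaves out genuine ribosome parts with other names, such as Fau, Rack1 and Rps3a1, and it left out 134 -ps symbols.

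RNA was sequenced from 3T3-L1 cells, a mouse fibroblast-like line that becomes fat-storing cells under hormones, in which the zinc finger gene Zbtb9 was targeted for knockdown. Every group received either a short hairpin RNA (shRNA) against Zbtb9 or a scramble hairpin, and every group followed the same differentiation course. Day 0 was confluent preadipocytes just before induction. Until day 3 the medium held insulin (167 nM), dexamethasone (1 µM) and the phosphodiesterase inhibitor IBMX (0.5 mM). Insulin alone stayed in it until day 7, and neither hormone nor drug was added from then until day 11. Each of the 4 time points had 4 scramble control libraries, 2 libraries of shRNA 1 and 2 of shRNA 2, so that 32 libraries were compared. The titles call replicates biological without saying whether they came from separate transductions, so p-values measure the spread between these libraries. All cells are of 1 established line.

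Ribosomal protein genes are among the most heavily transcribed genes of a growing cell. Their mRNAs typically begin with a cytosine followed by a run of pyrimidines, the terminal oligopyrimidine tract, through which mTOR and the RNA-binding protein Larp1 regulate their translation and stability. Transcription of the set is known to follow growth signals and Myc. Preadipocytes that are induced at confluence go through a phase of renewed growth before they differentiate.

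The library values are on the deposited log2 scale, so a difference of 1 is a doubling. The deposited values do not give sequencing depth in reads. They are normalized, so the depth behind each value is unknown. Zbtb9 was low in all libraries, with control means of 3.36 to 3.59 on the log2 scale. It was lower in knockdown by 0.21, 0.22, 0.35 and 0.28 at days 0, 3, 7 and 11. At days 0 and 7 each of the 4 knockdown values was under each of the 4 control values (two-sided exact permutation p = 0.0286 each, the smallest that 4 against 4 allow, and 0.0572 adjusted over 4 days), while the groups overlapped on the other days (exact permutation p 0.114 at day 3 and 0.143 at day 11, 0.143 adjusted on either day). Of the 16 knockdown libraries, 3 lay within the range of their controls: 2 at day 3 and, at day 11, shRNA 1 replicate 2. That library was at 3.66, where the day 11 controls were at 3.63, 3.44, 3.69 and 3.44. Zbtb9 values this low lie near the filter of 10 before log2, so they do not decide on the label of a single library. The adipocyte marker sum of that library, like those of the other day 11 knockdown libraries, was above every control of that day. Fibroblast markers, turned back from log2 and summed over 8 genes, were 523500 to 558000 in the day 0 controls, 212000 to 236800 at day 3 and 447200 to 506600 at day 11. The sum over 10 adipocyte markers, 1 of them under 10 throughout, went from 20200 to 20810 at day 0 to 54370 to 63850 at day 11 in control and to 109200 to 134700 in knockdown. Macrophage (4 genes, 2 under 10), endothelial (5 genes, 4 under 10) and skeletal muscle markers (3 genes, 2 under 10) summed to at most 701, 33.3 and 591.

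The start sites of the genes were examined first because the pyrimidine tract is the sequence feature the family is known for. RefSeq promoter entries (GRCm38.p6) were found by symbol for 60 of the 81 genes. A cytosine at the annotated start base followed by at least 5 pyrimidines in all was present in 14 of the 60 genes (23.3%), against 3.01% of all 27025 genes in the promoter table. When the tract was allowed to open within 5 bases of the annotated start, it was found in 48.3% of the 60 and in 21.2% of all genes. The ETS core CCGGAAG was present on either strand of the window, from 250 bases before to 50 bases after the start, in 40.0% of them and in 9.93% of all, and the YY1 core AAGATGGC in 8.33% and 3.19%. TATAAA was present in 10.0% and 15.7%. These matches describe letters in a window and not bound sites. The 6 genes written here as 80 bases of sense strand, which begin 60 bases before the annotated start base, show the range from a long tract to none among genes whose levels are described below. Capitals mark the longest run of pyrimidines opening with a cytosine within 5 bases of the annotated start, counted from that cytosine even where the base before it is also a pyrimidine.

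Rplp2: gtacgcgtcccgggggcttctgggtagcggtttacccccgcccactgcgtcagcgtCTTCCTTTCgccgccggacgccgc
Rpl31: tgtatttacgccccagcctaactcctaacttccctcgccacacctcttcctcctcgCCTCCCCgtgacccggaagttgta
Rplp0: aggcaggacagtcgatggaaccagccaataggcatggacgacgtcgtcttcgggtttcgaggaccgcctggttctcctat
Rpl15: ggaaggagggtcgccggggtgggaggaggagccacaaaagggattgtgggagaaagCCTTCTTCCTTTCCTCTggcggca
Rps27: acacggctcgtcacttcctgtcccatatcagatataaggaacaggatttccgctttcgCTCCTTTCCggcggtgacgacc
Rps27l: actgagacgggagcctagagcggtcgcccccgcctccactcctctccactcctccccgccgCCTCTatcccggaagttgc

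The windows lie at chr7:141447591-141447670 (plus strand) for Rplp2, chr1:39367791-39367870 (plus) for Rpl31, chr5:115559407-115559486 (plus) for Rplp0, chr14:18270967-18271046 (minus) for Rpl15, chr3:90213629-90213708 (minus) for Rps27 and chr9:66946026-66946105 (plus) for Rps27l. The marked run is 17 bases long in Rpl15, 9 in Rplp2 and Rps27, 7 in Rpl31 and 5 in Rps27l, which has 2 entries in the table. Rplp0 has no such run of 5 at this start. Rps27 and Rps27l are close paralogs, and their start regions differ in this feature as well as in the values below.

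Levels were far from equal between genes. Turned back from log2 and divided by exon length, the day 0 control level of the 79 protein-coding genes ranged from 92.3 per kilobase for Rps27rt, a retrotransposed copy of Rps27, to 50655 for Rplp1, with a median of 6428. The processed pseudogenes Rpl6l and Rpl37rt stood at 24.1 and 127 per kilobase. A median of 38.3% of a gene's 50-base words also occurred in transcripts of other genes, with the highest share, 95.1%, in Rpl35. How the deposited counting divided such reads is not given, so the level of a gene with many copies is uncertain, while its change over time compares the same gene with itself.

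The genes were first followed through differentiation in the scramble control. No uninduced cells of later days were among the samples, so induction and time in culture cannot be told apart. At day 3 the family rose almost as a block: 74 of 81 genes were higher than at day 0, 3 were lower, and 4 did not pass (limma, adjusted p under 0.05). The background was high, since 76.6% of the 13421 genes tested were called, but those calls were divided between the directions, with 38.3% higher and 38.2% lower. The median change of the 81 was 0.44 on the log2 scale, or 1.36-fold, against 0.00 for all genes tested. The median was 0.44 in the large subunit (46 of 49 higher) and 0.41 in the small subunit (28 of 32 higher). Rescaling the libraries to equal totals gave a shift of -0.13 in the day 3 change of the median gene. The family's median change was then 0.31, with 70 higher and 3 lower, while the share of higher genes among all calls went from 50.1% to 38.6%. In bulk libraries, a change in the number of cells with high levels and a change in the level of every cell cannot be told apart.

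Rplp2 had the largest rise at day 3. Rplp0, Rplp1 and Rplp2 form the acidic stalk of the large subunit, which recruits the elongation factors. Rplp2 had values of 13.59, 13.56, 13.59 and 13.51 in the day 0 controls and 14.54, 14.46, 14.59 and 14.60 in the day 3 controls. The 2 groups were separated by far more than the spread within either, and the fitted change was 0.98 (SE 0.05, adjusted p 2.71e-15). Rplp0 went from 15.94, 15.89, 15.90 and 15.83 to 16.75, 16.69, 16.77 and 16.74, a change of 0.84 (SE 0.04, adjusted p 7.58e-21). Rplp1 went from 14.69, 14.59, 14.66 and 14.56 to 15.46, 15.32, 15.42 and 15.43, a change of 0.78 (SE 0.04, adjusted p 1.94e-17). In each of the 3 genes every day 3 control was above every day 0 control. Rpl31, which sits near the exit of the peptide tunnel, rose by 0.87 (SE 0.04, adjusted p 1.23e-17), and Rpsa, a small subunit protein also known as the laminin receptor, by 0.71 (SE 0.04, adjusted p 4.26e-18).

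Rps27l was the clear exception at day 3. It is a paralog of Rps27 known as a target of p53. Control values were 10.92, 10.75, 10.73 and 10.93 at day 0 and 10.52, 10.17, 10.42 and 10.44 at day 3, with no overlap, and the change was -0.44 (SE 0.06, adjusted p 2.92e-07). Its partner Rps27 moved the other way over the same libraries, from 12.79, 12.60, 12.59 and 12.66 to 12.97, 12.82, 12.98 and 13.04 (change 0.29, SE 0.05, adjusted p 2.8e-06). Rpl15 fell by 0.09 (adjusted p 0.0323), and its call was lost when values were centred on the median gene (adjusted p 0.203). Rpl15 has the longest tract printed above, and the tract did not sort the genes at day 3: the median change was 0.50 in the 14 genes with cytosine and at least 5 pyrimidines at the start and 0.45 in the other 46 with an entry.

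**Figure D1:**
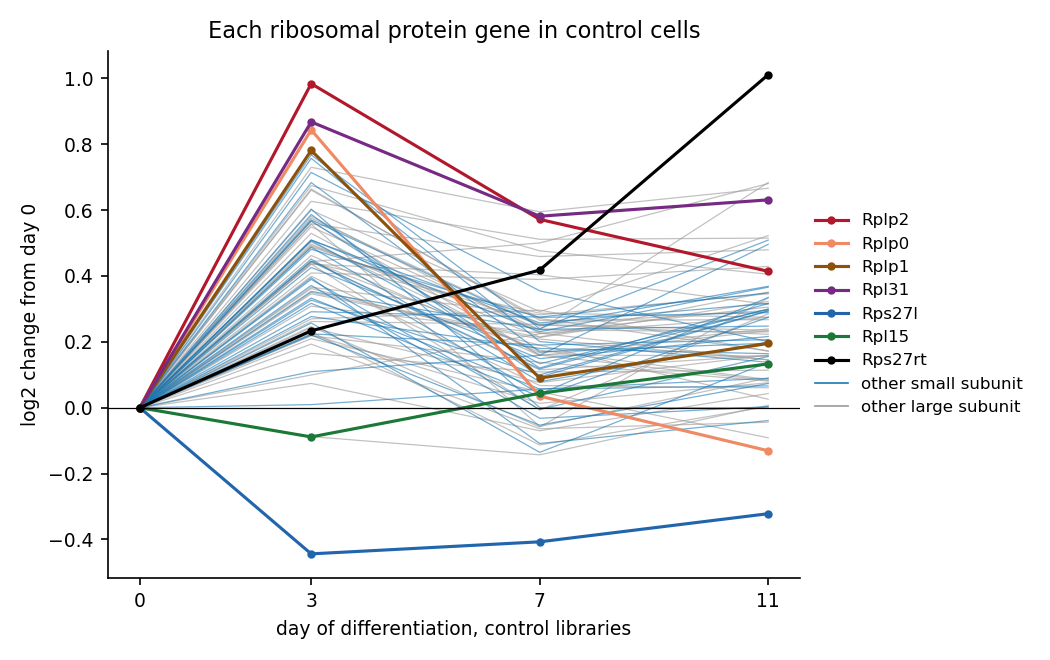
Log2 change from day 0 (vertical axis) of each of the 81 genes in the 4 control libraries at days 3, 7 and 11 (horizontal axis), 1 line per gene, with 7 genes named in colour and the rest coloured by subunit. Most lines peak at day 3, with Rplp2 at 0.98, and Rps27l stays below day 0 throughout.

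By day 7 most of the day 3 rise was gone. The median change from day 0 was 0.17 (1.125-fold), with 52 genes higher and 5 lower, where 69.1% of all genes were called (33.3% higher, 35.8% lower). With equal totals the median was 0.098, with 39 higher and 10 lower. Rplp2 was still higher than at day 0 by 0.57 (SE 0.05, adjusted p 2.63e-10), with values of 14.17, 14.10, 14.13 and 14.14 that lay between those of days 0 and 3. Rplp0 was back at 15.96, 15.88, 15.97 and 15.89, a change of 0.04 (adjusted p 0.399), and Rplp1 at a change of 0.09 (adjusted p 0.0618), and both overlapped day 0. Rpl29, Rpl31 and Rpl38 were the other genes with the largest rises, by 0.59, 0.58 and 0.51. The falls included Rps27l (-0.41), Rps19 (-0.14), Rpl13a (-0.11) and Rps20 (-0.11).

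At day 11 the median change from day 0 was 0.23 (1.17-fold), with 62 genes higher and 3 lower, where 64.6% of all genes were called (33.0% higher, 31.6% lower). Without day 11 control replicate 2 the median was 0.18. Rplp0 was now below its starting level by 0.13 (SE 0.04, adjusted p 0.00215), while Rplp2 was above it by 0.41 (SE 0.05, adjusted p 1.01e-07) and Rplp1 by 0.20 (SE 0.04, adjusted p 0.000178). The 3 stalk genes rose together at day 3, and at day 11 they lay on both sides of day 0. Rpl10 was lower by 0.09 (adjusted p 0.0199) and Rps27l by 0.32 (SE 0.06, adjusted p 5.55e-05). The largest rises were of low genes: Rps27rt by 1.01 (SE 0.15, adjusted p 2.67e-07), Rpl35a by 0.68 (adjusted p 0.000148), Rpl37rt by 0.68 (adjusted p 5.38e-07) and Rpl29 by 0.67 (adjusted p 3.02e-08). Rps27rt values were 5.35, 4.87, 5.25 and 4.90 at day 0 and 5.74, 6.39, 6.12 and 6.17 at day 11. Across 79 genes with exon words, the control changes of days 3, 7 and 11 had correlations of -0.004, -0.16 and -0.48 with the log2 level per kilobase, and of 0.02, 0.10 and 0.09 with the share of words found in other genes. These describe genes that share libraries. The 14 genes with the tract were all higher at day 11 (median 0.32), and of the 46 without it 33 were higher and 3 lower (median 0.17).

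Other genes of translation were followed over the same days. Of 34 genes for ribosome assembly, which make and fold ribosomal RNA in the nucleolus, 33 were higher at day 3 and none lower, with a median of 0.98. Rrp12, Nop56 and Rrp1b rose by 1.60, 1.56 and 1.52. At day 7 the same list had 8 higher and 15 lower (median -0.10), and at day 11 17 higher and 3 lower (median 0.08). Of 35 translation factors, 29 were higher and 3 lower at day 3 (median 0.41), led by Eif5a (0.92), and Eif3e fell by 0.27. They had 13 higher and 9 lower at day 7, and 18 higher and 4 lower at day 11 (median 0.09). The 78 mitochondrial ribosomal proteins, which serve the separate ribosome of mitochondria, had medians of 0.35, 0.29 and 0.23 at days 3, 7 and 11, with 61, 65 and 54 higher. Of the ribosome parts outside the name rule, Fau, Rack1, Rpl7l1 and Rpl22l1 were higher at day 3, by 0.15, 0.57, 0.83 and 0.53, and Rps3a1 was higher by 0.38.

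Myc, a transcription factor that drives ribosome production, was higher at day 3 by 2.63 (SE 0.07, adjusted p 1.75e-18), with control values of 10.38, 10.57, 10.59 and 10.63 at day 0 and 13.12, 13.19, 13.19 and 13.17 at day 3. Among the 20 regulators tested, 14 were higher and 6 lower on that day. Tsc1 and Tsc2, the inhibitors upstream of mTOR, fell by 0.70 and 0.65, and Mxi1, a Myc antagonist, was higher by 1.69 at day 7 and 1.57 at day 11. Of 17 p53 targets tested, 12, 15 and 15 were lower and 4, 1 and 0 higher at days 3, 7 and 11, with medians of -0.34, -0.77 and -0.85, where 38.2%, 35.8% and 31.6% of all genes were lower. Any tie between that list and the fall of Rps27l was not tested.

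**Figure D2:**
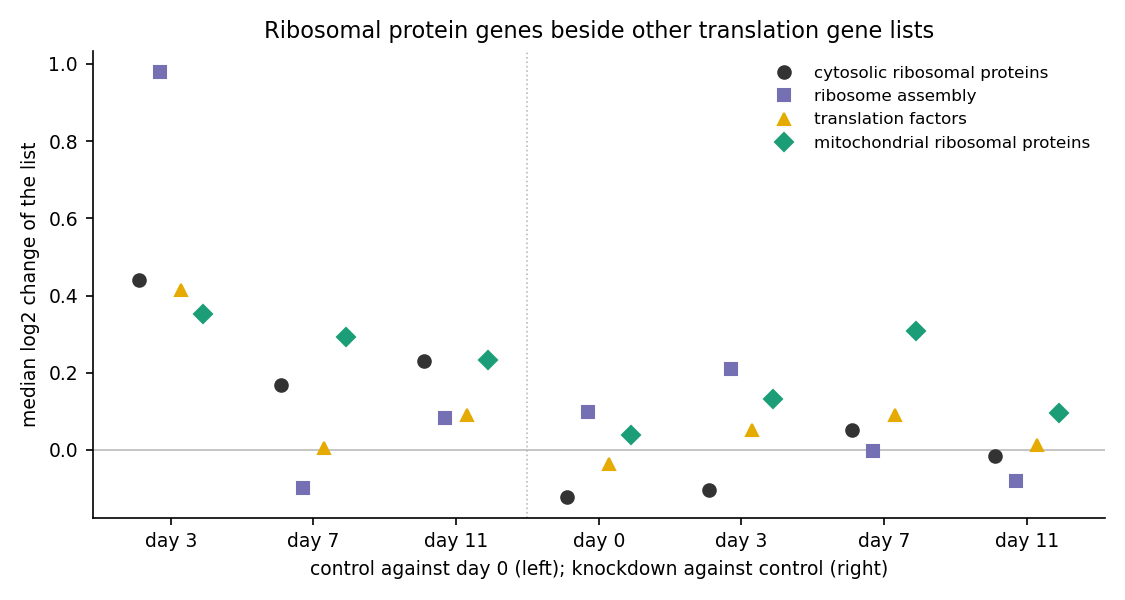
Median log2 change (vertical axis) of the 81 cytosolic ribosomal protein genes and of 3 other gene lists, in control against day 0 on the left and in knockdown against control on the right (horizontal axis). Ribosome assembly reaches 0.98 at day 3 in control, and the cytosolic ribosomal proteins are at -0.12 and -0.10 in knockdown at days 0 and 3, where the mitochondrial list is at 0.04 and 0.13.

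Because many genes moved together, each was also measured against the family, by centring every library on the median level of its 81 genes. On this scale 43 genes were higher and 8 lower at day 3, 13 and 22 at day 7, and 13 and 32 at day 11. Of all genes, 77.6%, 69.1% and 73.1% were called on these days (19.1%, 18.8% and 11.6% higher, 58.5%, 50.4% and 61.5% lower). Relative to the family, Rplp2 was higher by 0.69 at day 3 and Rps27l lower by 0.74. This scale does not take out the whole of the common change, since the median level of the 81 genes went from 13.52 at day 0 to 13.81 at day 3 and 13.80 at day 11 (means of 4 controls), less at day 3 and more at day 11 than the median of the genes' changes. The counts in each direction carry that difference. The bloc movement was also present between replicate libraries of 1 group. With group means removed, the 3240 pairs of genes had a median correlation of 0.70 over the 32 libraries, and 99.8% of them were above 0. The same was not worked out for pairs of other genes, so it is not shown to be particular to the family. In day 11 control replicate 2 all 81 genes lay above their group mean, and in day 3 control replicate 2 80 lay below. Day 11 shRNA 1 replicate 2 had 80 above, and replicate 1 mirrors it with 80 below, since that group has only 2 libraries. With group means kept, the correlation of Rps27l with the median of the other genes over the 32 libraries was -0.38, the lowest of the 81. Its fall over the days, given above, enters that value. For Rps20 the same correlation was 0.32.

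The knockdown libraries of each day were set against the controls of that day, to show how the family differed where Zbtb9 was targeted. With both shRNAs in 1 group the changes were small and their direction differed by day. At day 0, 6 genes were lower and none higher, with a median of -0.12 (0.92-fold), where 3.25% of the 13216 genes tested were called (0.817% higher, 2.44% lower). At day 3, 20 were lower and none higher (median -0.10, where 26.7% of genes were called, 14.6% higher and 12.1% lower). At day 7, 14 were higher and 1 lower (median 0.05, where 47.6% were called, 24.9% higher and 22.6% lower). At day 11, 2 were higher and 2 lower (median -0.02, where 33.0% were called, 16.8% higher and 16.2% lower). Medians over all genes tested were between -0.01 and 0.01 on these days. The summed values of the 81 genes made up 4.55% ± 0.13 of the day 0 control total and 4.25% ± 0.32 of the knockdown total (SD, n = 4 each). The same shares were 5.69% ± 0.24 and 5.26% ± 0.34 at day 3, 4.79% ± 0.09 and 4.80% ± 0.11 at day 7, and 4.97% ± 0.24 and 4.81% ± 0.49 at day 11. All 4 knockdown libraries lay below all 4 controls in 25 of 81 genes at day 0, against 7.98% of all genes, and above them in none, against 5.95%. At day 3 the counts were 11 below (12.8% of all genes) and 0 above (15.5%). At day 7 they were 3 below (20.9%) and 12 above (23.3%), and at day 11 1 of each (17.3% and 17.0%).

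The day 0 calls included Rpl3, Rpl10a, Rps4x, Rpl37a and Rpl22. Rpl3, a core protein of the peptidyl transferase region, was at 14.48, 14.44, 14.46 and 14.49 in control, 14.30 and 14.29 with shRNA 1 and 14.17 and 14.15 with shRNA 2. The knockdown libraries were all below the controls, and the change was -0.24 (SE 0.05, adjusted p 0.0195). Rps4x, the X-linked copy of a small subunit protein (chrX:102184941-102189394, minus strand, GRCm38), was at 14.91, 14.88, 14.90 and 14.88 in control, 14.73 and 14.69 with shRNA 1 and 14.66 and 14.63 with shRNA 2, a change of -0.22 (SE 0.04, adjusted p 0.0128). Rpl10a changed by -0.24 (adjusted p 0.0468). With equal totals 2 of the 6 calls remained, and the share of higher genes among all calls went from 25.1% to 43.3%. Limma called none without control replicate 1, 2 or 3, and 1, 3 and 2 without control replicate 4, shRNA 1 replicate 2 and shRNA 2 replicate 1. When the shRNAs were fitted as separate groups and their effects averaged, 57 genes were lower and none higher at day 0 (25.3% of all genes called in that fit, 11.0% higher and 14.3% lower), since the spread then no longer held the difference between shRNAs.

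At day 3 the largest falls included Rpl22, Rps4x and Rpl36a. Rpl22 is an RNA-binding protein of the large subunit (chr4:152325742-152334071, plus strand). It was at 13.33, 13.16, 13.34 and 13.26 in control, 12.96 and 12.84 with shRNA 1 and 13.08 and 12.92 with shRNA 2. Both shRNAs lay below all controls, and the change was -0.32 (SE 0.06, adjusted p 0.000706). Rps4x was at 15.27, 15.12, 15.24 and 15.28 in control and 15.01, 14.91, 14.98 and 14.80 in knockdown, a change of -0.30 (SE 0.05, adjusted p 0.000859). Of the 6 genes called lower at day 0, 4 were called lower at day 3, among them Rps4x, Rpl22 and Rpl37a. The libraries were separate but carried the same hairpins. The share of all genes that repeated in this way was not worked out, so the repeat is not shown to be particular to the family. Rps27 fell by 0.25 (adjusted p 0.0082), and its paralog Rps27l had a change of 0.23 that did not pass (adjusted p 0.0917). The 20 calls became 7, 10 and 9 without control replicate 1, 3 or 4, and 33 genes were lower and 1 higher with the shRNAs as separate groups (40.4% of all genes called in that fit, 21.4% higher and 19.0% lower). Ribosome assembly genes went the other way on this day: 25 of 34 were higher in knockdown and none lower (median 0.21), with Pno1 at 0.47 and Nop56 at 0.39. Myc was higher by 0.21 (adjusted p 0.00121). The summed adipocyte markers were 41890 to 55060 in knockdown and 25760 to 30830 in control on that day, and their part in the result was not tested.

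Day 7 differed in direction from the earlier days, since most calls of the family were higher. These 14 higher genes were nevertheless a smaller share of the family than the higher genes were of all genes tested. Rpl9 (chr5:65388364-65391444, minus strand), a protein at the base of the stalk, was at 14.36, 14.26, 14.35 and 14.25 in control, 14.70 and 14.76 with shRNA 1 and 14.70 and 14.62 with shRNA 2. All knockdown libraries were above all controls, and the change was 0.39 (SE 0.05, adjusted p 1.26e-05). Rplp2 was at 14.17, 14.10, 14.13 and 14.14 in control and 14.40, 14.39, 14.47 and 14.39 in knockdown, a change of 0.28 (SE 0.05, adjusted p 0.000141). The other stalk genes did not pass, with changes of 0.02 for Rplp0 (adjusted p 0.78) and -0.01 for Rplp1 (adjusted p 0.848). Rpl36al, a retrogene of the X-linked Rpl36a, rose by 0.33 (SE 0.06, adjusted p 0.000579), where Rpl36a itself changed by 0.05 (adjusted p 0.434). Rpl34 rose by 0.26 (adjusted p 0.0194), a call that was lost with equal totals (adjusted p 0.0502). Rps20, which lies at the head of the small subunit, fell by 0.20 (SE 0.05, adjusted p 0.00692). Its values were 14.23, 14.13, 14.24 and 14.24 in control, 14.10 and 14.08 with shRNA 1 and 13.92 and 13.96 with shRNA 2. Across 79 genes the day 7 knockdown change had a correlation of -0.43 with the log2 level per kilobase, and the low genes Rpl34, Rpl35a, Rpl36al and Rps18 were among the 14 higher ones. With equal totals the calls at day 7 were 7 higher and 4 lower, 8 of them among the 15 above. Mitochondrial ribosomal proteins rose far more widely on that day, with 67 of 78 higher, none lower and a median of 0.31, led by Mrpl12 at 0.89. The adipocyte marker sums were 125100 to 190700 in knockdown and 46970 to 50840 in control. Those of fibroblast markers were 278800 to 319000 in knockdown and 378300 to 398000 in control. The part of these sums in either result was not tested.

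At day 11 the called genes were Rpl22, Rpl9, Rps9 and Rps20. Rpl22, which had been lower at days 0 and 3, was now higher. Its values were 13.11, 13.28, 13.13 and 13.26 in control, 13.41 and 13.78 with shRNA 1 and 13.35 and 13.55 with shRNA 2, with no overlap, and the change was 0.33 (SE 0.09, adjusted p 0.0138). The call held without any 1 library, with changes of 0.24 to 0.39, the lowest without shRNA 1 replicate 2 (adjusted p 0.0125). Rpl22, like the other genes called on that day, lost its call when replicate number was added to the fit. Its paralog Rpl22l1 moved the other way on that day, by -0.34 (SE 0.09, adjusted p 0.0189). It was at 10.96, 11.00, 10.91 and 10.86 in control and at 10.63, 10.85, 10.60 and 10.30 in knockdown. Rpl9 was higher by 0.23 (adjusted p 0.0376), Rps9 lower by 0.22 (adjusted p 0.0347) and Rps20 lower by 0.18 (adjusted p 0.0485). Of these 4, only Rpl22 passed in each of the 8 fits that left out 1 library. The 4 calls became 1 higher and 10 lower without shRNA 1 replicate 2, and 1 or 2 in all without any other library. Measured against the family median, Rpl22 was lower by 0.27 at day 3 (adjusted p 0.0156) and higher by 0.35 at day 11 (adjusted p 0.00278). Rpl9 was higher on this scale by 0.32 at day 7 (adjusted p 5.39e-05), and its day 11 difference was 0.25 (adjusted p 0.022). In all, this scale had 0 calls at day 0 by limma (8 genes at an unadjusted p under 0.05), 1 higher and 5 lower at day 3, 5 and 4 at day 7, and 2 and 0 at day 11, where 11.6%, 16.3%, 45.4% and 19.6% of all genes were called (10.8%, 12.2%, 17.9% and 12.5% higher, 0.802%, 4.13%, 27.5% and 7.09% lower). Leaving out shRNA 1 replicate 2 or control replicate 1 took the 6 calls at day 3 to 2, and leaving out control replicate 4 took them to 1, while the 2 at day 11 became 1 without shRNA 2 replicate 2 or control replicate 3 or 4, and 7 without shRNA 1 replicate 2.

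**Figure D3:**
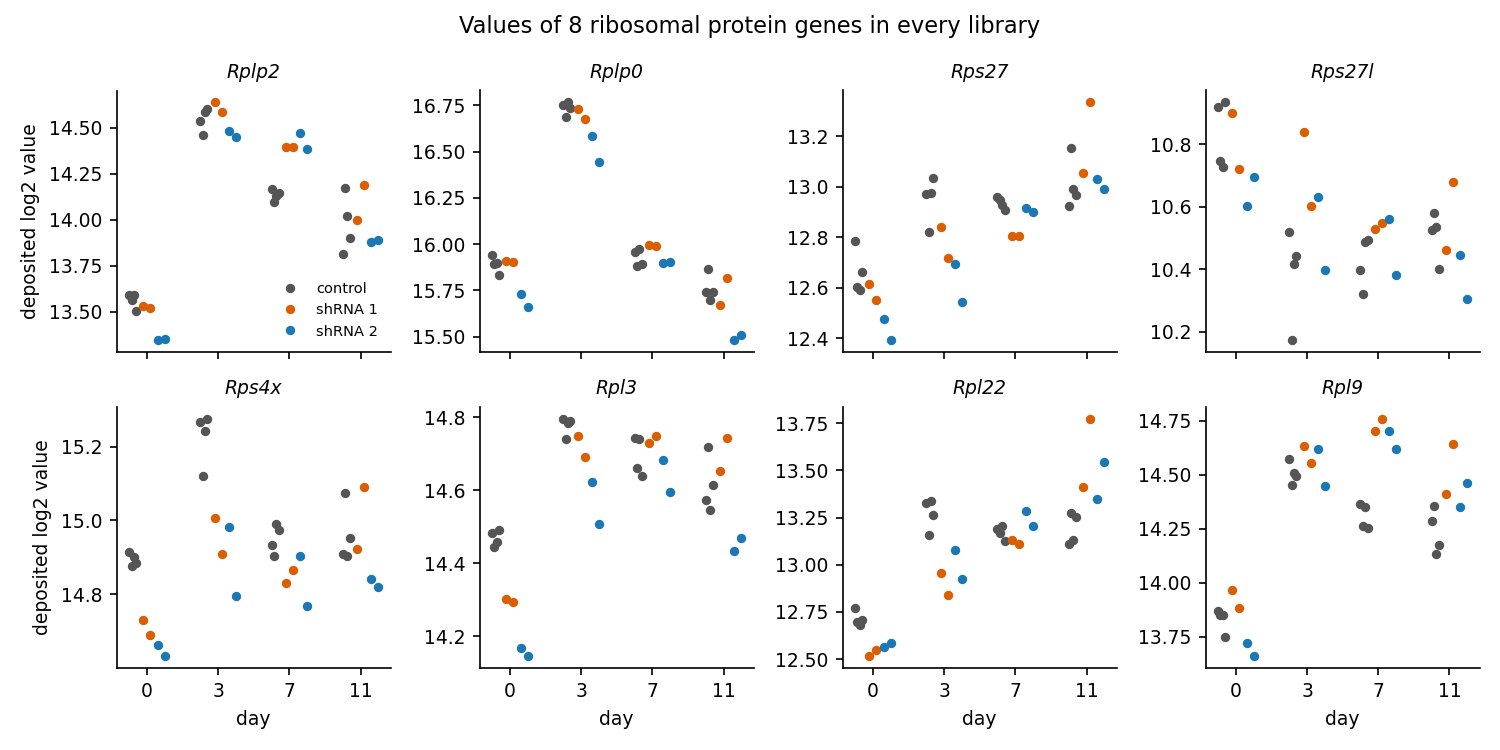
Deposited log2 value (vertical axis) of 8 genes in every library by day (horizontal axis), with 4 control points and 2 points for each shRNA. Rplp0 and Rplp2 rise at day 3, Rps27l falls, Rps4x is lower in knockdown at days 0 and 3, and Rpl22 is lower in knockdown at day 3 and higher at day 11.

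The 2 shRNAs did not act alike on the family. They are compared here with the same controls on each day, and with each other directly. At day 0, 71 of the 81 genes were lower with shRNA 2 and none higher (median -0.21, 0.86-fold), where 17.6% of all genes were called (7.38% higher, 10.2% lower). All 81 fitted changes were below 0. With shRNA 1, 14 were lower and 5 higher (median -0.03), where 34.7% of all genes were called (15.8% higher, 18.9% lower). Without shRNA 1 replicate 2 those 19 calls became 8. With equal totals the shRNA 1 calls were 10 higher and 9 lower, so that its direction depended on the scaling, while shRNA 2 had 66 lower and none higher. The share of higher genes among all calls for shRNA 2 was 42.0% before that rescaling and 57.0% after it. Compared directly, shRNA 2 was below shRNA 1 in 64 genes and above it in none (median -0.20, where 35.0% of genes were called, 18.6% higher and 16.4% lower). The large majority of genes were therefore lower with 1 hairpin than with the other in libraries of the same day and protocol. The median over the 81 genes of the difference from day 0 control was 0.06, -0.03, -0.01 and -0.02 in the controls, -0.02 and -0.05 with shRNA 1, and -0.19 and -0.24 with shRNA 2.

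The genes most affected by shRNA 2 at day 0 were Rpl12, Rps19 and Rpl10a, with changes of -0.41, -0.35 and -0.34 (adjusted p 3.67e-11, 1.94e-08 and 4.02e-09), and the low pseudogene Rpl6l with -0.51 (SE 0.16, adjusted p 0.0261). The stalk genes Rplp0, Rplp1 and Rplp2 fell by 0.20, 0.29 and 0.21. Rpl5 and Rpl11, which join the 5S ribosomal RNA and bind Mdm2 when free, fell by 0.15 and 0.18, and Rps6, the target of the S6 kinases, by 0.19. Among the genes called with shRNA 1 the highest rises were Rpl36al (0.26, adjusted p 0.0014) and Rps27a (0.17, adjusted p 0.000103), which is made as a fusion with ubiquitin. Those 2 genes were lower with shRNA 2 than with shRNA 1 by 0.40 and 0.34. Rps4x (-0.18), Rpl22 (-0.18) and Rpl3 (-0.17) fell with shRNA 1, and with shRNA 2 they fell by 0.25, 0.14 and 0.31. At day 0, 18 of 35 translation factors were lower with shRNA 2 and 1 higher (median -0.11), but ribosome assembly genes had 7 lower and 1 higher (median -0.01), and mitochondrial ribosomal proteins had 1 lower and 2 higher (median -0.01). With shRNA 1, 26 of the 34 ribosome assembly genes were higher and none lower (median 0.22). Myc was at 10.38, 10.57, 10.59 and 10.63 in the day 0 controls, 10.40 and 10.61 with shRNA 1 and 9.97 and 9.86 with shRNA 2. It was lower with shRNA 2 by 0.62 (SE 0.07, adjusted p 2.23e-06) and had a change of -0.04 with shRNA 1 (adjusted p 0.701). Summed fibroblast markers were 400100 to 496900 in the knockdown libraries of that day, below the 523500 to 558000 of control. The part of either in the lower values was not tested.

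At day 3, 35 genes were lower with shRNA 2 and none higher (median -0.16, where 31.4% of genes were called, 16.8% higher and 14.5% lower). With shRNA 1, 13 were lower and 3 higher (median -0.05, where 39.4% were called, 20.6% higher and 18.7% lower). Rps27l was the largest rise with shRNA 1, by 0.33 (adjusted p 0.0231), and Rpl22 and Rpl37a the largest falls, by 0.38 and 0.32. Without control replicate 2, which lay below the control mean in 80 genes, the counts were 60 lower with shRNA 2, and 27 lower and 2 higher with shRNA 1. Without shRNA 2 replicate 2, 17 were lower with shRNA 2, and without shRNA 1 replicate 2, 5 were lower and 2 higher with shRNA 1. The direct comparison gave 15 lower and 1 higher with shRNA 2 (19.6% of genes called, 10.6% higher and 8.94% lower). Its 16 calls became 2, 30 and 3 without shRNA 1 replicate 1, shRNA 2 replicate 1 and shRNA 2 replicate 2. At day 7 the shRNAs were closer, with 23 higher and 3 lower for shRNA 1 (median 0.08, where 52.0% of genes were called, 27.7% higher and 24.3% lower) and 12 higher and 3 lower for shRNA 2 (median 0.02, where 46.0% were called, 24.0% higher and 22.0% lower). Without shRNA 1 replicate 1 or 2 its 26 calls became 13 and 16. Directly, 6 were lower and 2 higher with shRNA 2 (16.4% called, 7.52% higher and 8.90% lower), and 1 to 4 were called when any 1 of the 4 shRNA libraries was left out. Rpl9 rose with both, by 0.42 and 0.35, as did Rplp2, by 0.26 and 0.29. Rps27rt rose with shRNA 2 by 0.55 (SE 0.15, adjusted p 0.00279) and had a change of 0.06 with shRNA 1 (adjusted p 0.774).

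At day 11 the median changes with the hairpins were on opposite sides of control. With shRNA 1, 12 genes were higher and none lower (median 0.09, where 43.6% of genes were called, 21.4% higher and 22.2% lower). With shRNA 2, 23 were lower and none higher (median -0.13, where 36.9% were called, 17.4% higher and 19.4% lower). Directly, 29 genes were lower with shRNA 2 and none higher (median -0.20, where 22.0% were called, 11.6% higher and 10.4% lower). The shRNA 1 calls rested on replicate 2, whose Zbtb9 value of 3.66 was above 3 of the 4 controls. The 2 shRNA 1 libraries stood 0.21 and 0.39 above day 0 control at the family median, and without replicate 2 the median change of shRNA 1 from control was -0.003, with 1 gene higher and 2 lower. Without its replicate 1 there were 32 higher, without control replicate 2 22, and without control replicate 1, 3 or 4 there were 6, 6 and 5. The direct comparison had 1, 64, 4 and 16 lower genes without shRNA 1 replicate 2, shRNA 1 replicate 1, shRNA 2 replicate 1 and shRNA 2 replicate 2. The 23 shRNA 2 calls became 10, 11 and 15 without its replicate 1, its replicate 2 and control replicate 2. The largest falls with shRNA 2 were of small subunit genes: Rps18 by 0.69 (SE 0.13, adjusted p 0.00229), from 10.59, 10.98, 10.88 and 10.60 in control to 9.98 and 10.17, Rps10 by 0.39, Rps19 by 0.38 and Rps2 by 0.34. In the same libraries 20 of 34 ribosome assembly genes were lower and none higher (median -0.22), with Nhp2 and Rrp12 at -0.50 and -0.42. Of 78 mitochondrial ribosomal proteins, 14 were higher and 1 lower, a share of higher genes near that of all genes. Mxd1 and Mxi1, antagonists of Myc, were higher by 1.95 and 1.25. Myc was higher too, by 0.24 (adjusted p 0.0201), and with shRNA 1 by 0.61 (adjusted p 6.99e-06). The summed adipocyte markers were 109200 to 134700 in the knockdown libraries and 54370 to 63850 in control, and their part in these changes was not tested.

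**Figure D4:**
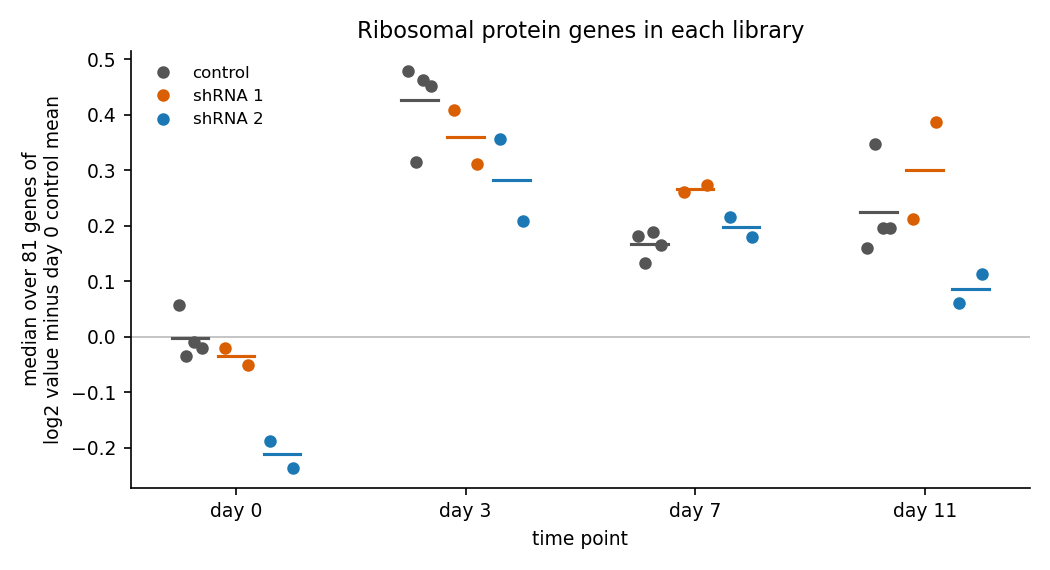
Median over the 81 genes of the log2 value minus the day 0 control mean (vertical axis) for each library by day (horizontal axis), with short lines at group means (n = 4 for control, n = 2 for each shRNA). Both shRNA 2 libraries at day 0 lie at -0.19 and -0.24, below all others of that day, and the 2 shRNA 1 libraries at day 11 lie at 0.21 and 0.39.

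**Figure D5:**
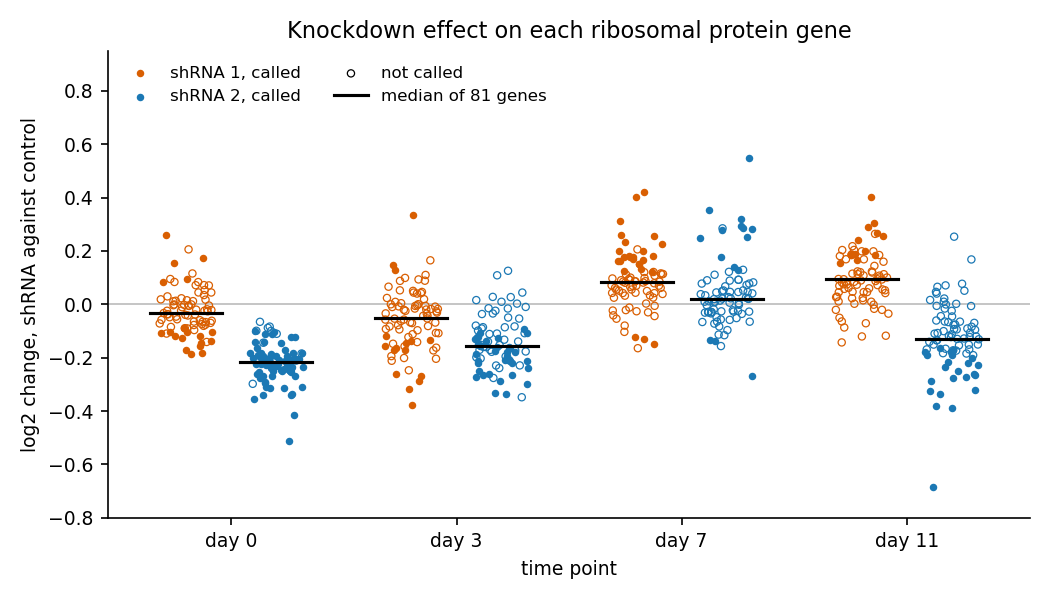
Log2 change against control (vertical axis) of each of the 81 genes for each shRNA and day (horizontal axis), with filled points for adjusted p under 0.05, open points for the rest and black lines at the medians. For shRNA 2 at day 0 the median is -0.21 with 71 genes called lower, and at day 11 the medians are 0.09 for shRNA 1 and -0.13 for shRNA 2.

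Whether the knockdown effect changed with time was tested directly over all 32 libraries. Against the effect at day 0, limma called no gene of the family at day 3 (3 at an unadjusted p under 0.05), where 6.57% of 13571 genes were called. At day 7, 14 genes had a higher effect than at day 0 and none a lower one (median 0.18), where 29.9% of all genes were called (16.8% higher, 13.2% lower). At day 11, 6 were higher and none lower (median 0.11, where 23.2% were called, 12.4% higher and 10.8% lower). The counts of higher effects were thus near the share over all genes at day 7 and below it at day 11. Rpl22 had the largest difference at day 11, of 0.49 (SE 0.09, adjusted p 0.000123). At day 7 they were Rpl6l (0.48), Rps14 (0.44), Rpl9 (0.41) and Rplp2 (0.40). With equal totals the counts were 5 and 1, and the share of higher effects among all genes called went from 56.0% to 40.7% at day 7 and from 53.6% to 40.1% at day 11. Without day 0 shRNA 1 replicate 1 the day 7 count was 28, without either day 0 shRNA 2 library 9, and without day 7 control replicate 2 it was 8. The 6 calls of day 11 became 1 to 3 without any of 8 libraries (control replicates 1, 3 and 4 or shRNA 1 replicate 2 of day 11, control replicate 1 or 3 of day 0, and either shRNA 2 library of that day), 11 without day 0 shRNA 1 replicate 1 or day 11 control replicate 2, and 13 without day 11 shRNA 2 replicate 1. These comparisons share the day 0 libraries. In order of day, the median knockdown change of the family was -0.12, -0.10, 0.05 and -0.02.

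The changes were also set beside the share of sequence found in other genes. At day 3 in control the median change was 0.43 in the 15 genes with under 20% of words shared, 0.49 in the 40 with 20 to 60%, and 0.36 in the 24 with at least 60%. For shRNA 2 at day 0 the medians of the same groups were -0.22, -0.21 and -0.23, with 13 of 15, 35 of 40 and 22 of 24 called lower. For shRNA 1 on that day 2 of 15, 4 of 40 and 8 of 24 were called lower (medians -0.04, -0.005 and -0.07). The pooled knockdown medians at day 3 were -0.16, -0.10 and -0.09. Over the 9 comparisons examined, correlations of the change with the share ran from -0.10 to 0.10 across 79 genes.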

How the data were processed

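RNA was measured in 32 libraries of 3T3-L1 cells made with an Illumina TruSeq kit, per the labels' protocols. TopHat2 2.1.0, Bowtie2 2.2.6, SAMtools 1.3.1 and HTSeq 0.6.1 are named in the submitters' processing notes. The genome build, annotation, use of strand and transform are not given in the sources used here. The authors deposited 1 table of log2 values for 20560 genes (28 without a symbol). The planned pseudocount was not needed because the deposited values are already log2, from -1.56 to 17.99. If that transform draws low genes towards their mean, as some do, differences of low genes are understated.

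Groups and replicate numbers came from titles. limma 3.58.1 (R 4.3.3) was fitted over all genes with a value of at least 10, turned back from log2, in at least 4 libraries, with mean-variance trend, robust empirical Bayes and Benjamini-Hochberg adjustment. A gene is called at an adjusted p under 0.05. All 81 genes passed the filter in every fit. Knockdown and control were fitted per day (8 libraries), each shRNA in a 3-group fit per day, the time course on 16 control libraries, and the change of effect on all 32. Zbtb9 was tested by an exact permutation of 70 arrangements. The fits were tested on simulated data. Some genes are not reported here by name.

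The genes and lists were chosen with earlier results of these data known. Named genes are the stalk, 5S-binding and paralog members, Rpsa, Rps6 and Rps27a, up to 4 of the largest changes in each direction per comparison and up to 3 per list. Rpl37a and the called genes at days 0 and 11 were named after their values were seen. Promoters are from RefSeq (GRCm38.p6) and gene positions and 50-base words from GENCODE M21 (GRCm38), matched by gene ID, which may not be the authors' build. Replicate numbers were not taken to pair libraries: same-numbered libraries of a day had correlated deviations of -0.003 to 0.222, with 5 of 24 pairs over 0.1. In these 24 the pair of both shRNAs enters at either number with the same value, since each shRNA has 2 libraries per day. Alternatives were other filters, a pseudocount, no trend, scalings, pooled fits, a replicate block and leaving out each library.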

Additional observations from a re-analysis of the deposited data

Results flagged for a closer look

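In groups of 4 control libraries, 17 of 184 sets of values (9.24%) had 1 library set apart from the rest by more than Dixon's critical value at 95%, where chance gives about 1 in 20. Most came from replicate 2. At day 3, control replicate 2 was low in Rpl29 (8.92), Rpl35a (8.94), Rpl36al (10.03), Rpl38 (12.84), Rps21 (12.90) and Rps9 (14.77). At day 7, control replicate 2 was low in Rpl38 (12.85) and Rps20 (14.13) and high in Rpl37rt (7.17). At day 11, control replicate 2 had a share of summed values in the 81 genes of 5.33% (others 4.84% to 4.87%) and a Rps20 value of 14.40. At day 0, control replicate 1 was high in the family median (13.55, others 13.50 to 13.51), Rpl17 (13.34), Rps14 (13.66) and Rps23 (13.81), and control replicate 4 was low in Rpl9 (13.75) and Rps9 (14.20).

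The knockdown effect differed between days by the interaction test in 14 of 81 genes at day 7 against day 0, all with a higher effect, as had 16.8% of all genes, among them Rpl6l (0.48), Rps14 (0.44), Rpl9 (0.41) and Rplp2 (0.40). At day 11 against day 0 it differed in 6, all with a higher effect, as had 12.4% of all genes, among them Rpl22 (0.49), Rpl36 (0.32), Rpl36a (0.29) and Rpl17 (0.28).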

How the results depend on the processing

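The median change in the control time course stayed above 0, and its number of calls in all stayed within 1.5 times, under every alternative run. Its split did not: at day 7, 52 higher and 5 lower became 39 and 10 with equal totals and 41 and 2 in the fit of all 32 libraries. With equal totals its medians were 0.313 at day 3 and 0.098 at day 7, and the change of effect had 5 calls (median 0.116) at day 7 and 1 at day 11. Equal totals also left 2 knockdown calls at day 0, and gave 19 for shRNA 1 at day 0 with the majority turned to higher. It took the share of higher genes among all calls from 53.2% to 42.5% for shRNA 1 and from 45.8% to 61.9% between shRNAs at day 7. In order of day, knockdown counts were 57, 34, 26 and 14 with the shRNAs as separate groups, and 1, 10, 9 and 1 without trend and robust settings. The fit of all 32 libraries gave 8 at day 7 and 10 at day 11, and no filter gave 12 at day 3. Without trend and robust settings, shRNA 1 had 9, 5, 14 and 3 calls at days 0, 3, 7 and 11, shRNA 2 had 13 at day 3 and 12 at day 11, and the shRNAs differed in 42, 0, 1 (higher, against a majority of lower) and 8 genes. The same setting gave 3 for the change of effect at day 11 and 1 each at days 3 and 11 relative to the family. No filter gave 9 and 6 for shRNA 1 and 23 and 14 for shRNA 2 at days 3 and 11, 4 and 5 between shRNAs at days 3 and 7, and 3 for the change of effect at day 11.

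Replicate numbers were not taken to pair libraries, since only 5 of 24 same-numbered pairs of a day, all at day 11, had correlated deviations over 0.1. The pair of both shRNAs is counted at either number with the same value, which was 0.102 at day 11. The family's median deviation nevertheless had 1 sign in all 3 arms for replicate 1 at days 0, 3 and 11. Control replicate 2 had the other sign on those days. In the shRNA arms, which have 2 libraries each, the opposite sign of replicate 2 is fixed by that of replicate 1. A shared source for those numbers was not tested. A replicate block gave 0, 4, 7 and 0 knockdown calls in order of day, 38 and 52 between shRNAs at days 3 and 11, 3 for the change of effect at day 11, and 0, 3 and 1 relative to the family at days 3, 7 and 11. With the block, Rpl22 at day 11 had a change of 0.33 (adjusted p 0.06). Of the changes of named genes, 29 lost their call under the block, 42 without trend and robust settings, 21 without a filter and 8 with equal totals, and none turned sign. The cause of these differences was not tested.

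Leaving out 1 library gave 0 to 9, 7 to 29 and 1 to 11 knockdown calls at days 0, 3 and 11 (day 11 median -0.085 to 0.029). For shRNA 1 the ranges were 8 to 22, 7 to 29, 13 to 30 and 3 to 32 (day 11 median -0.003 to 0.178). For shRNA 2 they were 17 to 60 at day 3 (median -0.218 to -0.078) and 10 to 23 at day 11. Between shRNAs they were 2 to 30 at day 3 (median -0.161 to -0.025), 1 to 4 at day 7 and 1 to 64 at day 11 (median -0.308 to -0.113). The change of effect had 0 to 2, 8 to 28 and 1 to 13 calls at days 3, 7 and 11 (day 11 median 0.038 to 0.153). Relative to the family there were 1 to 7 at day 3, 7 to 13 at day 7 and 1 to 7 at day 11. The majority direction turned without day 7 shRNA 1 replicate 2 between shRNAs (1 call), without day 11 shRNA 1 replicate 2 for shRNA 1 (3), and relative to the family without day 3 control replicate 4 (1), day 7 shRNA 2 replicate 1 (13) and day 11 shRNA 1 replicate 2 (7). With unknown depth, the precision of low genes such as Rps27rt and Rpl6l cannot be set from counts. Each shRNA has 2 libraries per day, and the division of reads between near-identical copies is not given.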

Other observations

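Mdm2, the ubiquitin ligase that free Rpl5 and Rpl11 bind, was among the genes with high values. It was at 17.23, 17.22, 17.27 and 17.25 in the day 0 controls, where the highest value of any gene in any library was 17.99. It was higher in knockdown at days 3, 7 and 11, by 0.18, 0.15 and 0.30 (limma, adjusted p 0.00764, 0.0258 and 0.027). At day 0 it was at 17.19 and 17.19 with shRNA 1 and 17.10 and 17.10 with shRNA 2, below all controls, and the change of -0.10 did not pass (adjusted p 0.2). Mdm2 was singled out after its values were seen.

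Some ribosome parts outside the name rule also changed under knockdown. Rack1 was lower at day 3 by 0.14 (limma, adjusted p 0.0443). Rpl7l1 was higher on that day by 0.24 (adjusted p 0.00074), and Fau was higher at day 7 by 0.15 (adjusted p 0.0176).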
